A study of Mus musculus with 10 samples.

Results

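A set of 10 immediate early genes was followed: Fos, Fosb, Jun, Junb, Jund, Egr1, Atf3, Ier2, Ier3 and Dusp1. They were taken by symbol from a deposited table of raw gene counts, and all 10 were among its 23337 genes. They were read in mouse embryoid bodies, aggregates of differentiating embryonic stem cells, of an iHA-Etv2 line. In this line doxycycline induces HA-tagged Etv2, the ETS-family factor without which blood and vessels do not form. There were 2 libraries in each of 5 groups. At day 2 these were doxycycline-treated and untreated embryoid bodies. At day 2.5 they were Flk1-positive doxycycline-treated samples, the other doxycycline-treated samples, and untreated embryoid bodies. Flk1 is the surface receptor encoded by Kdr, which marks precursors of blood and endothelium. For the remaining 8 libraries the label for Flk1 reads FALSE, which could mean unsorted or sorted as negative. All groups carry the same inducible line, so no group lacks the transgene. Neither the dose of doxycycline nor the time of its addition is stated in the sources used here.

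Immediate early genes are transcribed within minutes of a stimulus, without new protein synthesis. Growth factor signals reach them through the ERK kinase cascade, which activates ternary complex factors bound with SRF at serum response elements, and stress and cAMP signals reach them through CREB and ATF proteins. Their transcripts are short-lived, so their level also follows handling of the cells, including dissociation and sorting. Fos, Fosb, Jun, Junb and Jund encode subunits of AP-1, a dimeric transcription factor. Atf3 encodes a stress-induced ATF family member that can pair with Jun proteins. Egr1 encodes a zinc-finger transcription factor, and Dusp1 a phosphatase that inactivates MAP kinases. Ier2 and Ier3 are further early response genes, and Ier3 acts in cell survival.

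Total counts ran from 18074070 to 36068329 per library. CPM values, the usual depth-scaled counts, use TMM-scaled library sizes, and 3 counts, taken as the limit that a count of 0 allows, corresponded to 0.0824 to 0.164 CPM. Etv2 averaged 455 ± 73.9 CPM in doxycycline-treated and 16.9 ± 1.62 CPM in untreated embryoid bodies at day 2 (SD, n = 2 each). At day 2.5 it averaged 313 ± 14.0 CPM in Flk1-positive samples, 263 ± 11.5 CPM in the other doxycycline samples and 7.04 ± 0.66 CPM in untreated ones. Kdr averaged 997 ± 15.3 CPM in Flk1-positive samples, 419 ± 20.1 CPM in the other doxycycline samples of day 2.5 and 7.23 ± 0.26 CPM in untreated ones. Reads of the induced and the endogenous Etv2 cannot be told apart. The pair of doxycycline day 2 libraries differed more than the other pairs, at 31.8 for chi-square per gene, where the other 4 pairs had 3.29 to 9.52. Its log2 ratio of replicate 1 over replicate 2 fell with exon length (Spearman correlation across genes -0.45) and rose with GC content (0.32). In the Flk1-positive pair the correlation with GC content was 0.37. Genes are not independent replicates, so these correlations describe the libraries. Results at day 2 are therefore given with and without each doxycycline library. The labels do not say that replicates were separate cultures, so the p-values reflect spread among these samples alone, possibly technical spread. In bulk RNA, a change in how many cells express a gene and in how much each expresses cannot be told apart. Where groups of 2 libraries are said not to overlap, that alone is weak evidence of a difference. The share of all genes without overlap is not given here.

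**Figure D1:**
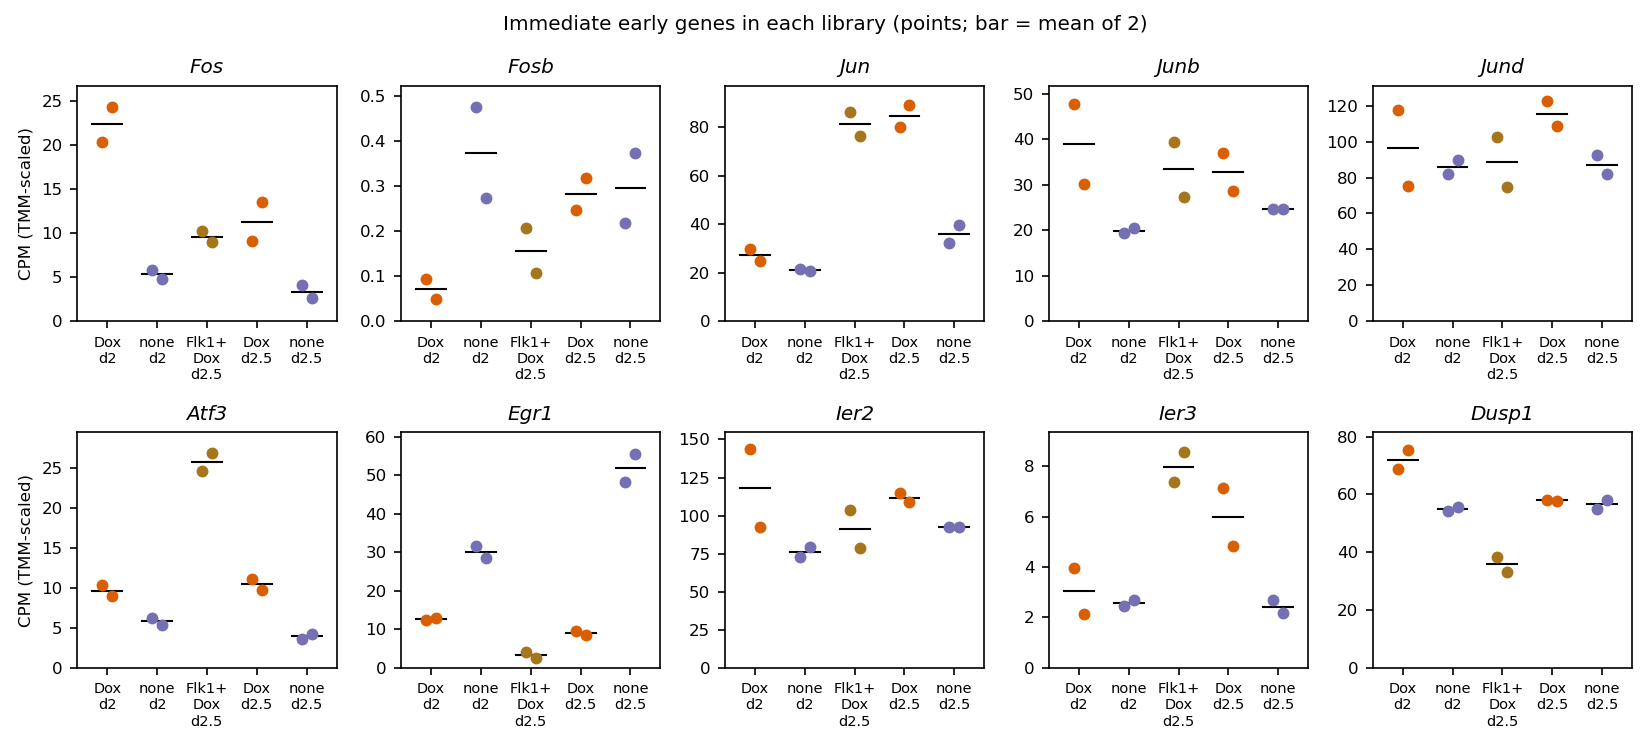
Level of each of the 10 immediate early genes in CPM of TMM-scaled library size in each of the 10 libraries. Points are libraries, and horizontal bars are means of 2, with a vertical axis from 0 for each gene. Egr1 lies at 2.54 to 12.8 CPM in all 6 doxycycline libraries and at 28.6 to 55.5 CPM in the 4 untreated ones, while Fos lies at 9.01 to 24.3 CPM in doxycycline libraries and at 2.57 to 5.80 CPM in untreated ones.

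Levels differed widely between the 10 genes. Per kilobase of exon in untreated day 2 embryoid bodies, Jund stood at 51.5 ± 3.09 and Ier2 at 50.1 ± 3.01 CPM per kb, followed by Dusp1 at 16.6 ± 0.30. Jund and Ier2 did not differ beyond their spread. Junb (8.62 ± 0.35), Egr1 (6.71 ± 0.47) and Jun (6.66 ± 0.18) came next on this scale, and Egr1 and Jun did not differ beyond their spread. Atf3 (2.70 ± 0.27), Ier3 (2.27 ± 0.13) and Fos (2.26 ± 0.30) were low, and Ier3 and Fos did not differ beyond their spread. Fosb was near the counting limit at 0.060 ± 0.023 CPM per kb (SD, n = 2 each).

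Fosb, a Fos paralog, had 2 and 1 counts in doxycycline and 11 and 5 counts in untreated libraries of day 2. At day 2.5 it had 5 and 2 counts in Flk1-positive libraries, 9 and 11 in the other doxycycline libraries and 5 and 9 in untreated ones. Pooled over the pair, the day 2 level was 0.0720 CPM with doxycycline (95% Poisson interval 0.0149 to 0.211) and 0.386 CPM without (0.221 to 0.627), intervals that cover counting error only. Fosb did not reach the minimum count, so 9 of the 10 genes were tested. Without that filter its day 2 log2 fold change was -2.33 in edgeR (adjusted p = 0.465), and it passed the threshold in none of the comparisons run without the filter.

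Junb, Jund and Ier2 lie on chromosome 8, at 84974484 to 84978718 (minus strand), 70698949 to 70700616 (plus) and 84661331 to 84662852 (minus) of GRCm38. Ier3 and Dusp1 lie on chromosome 17, at 35821684 to 35822923 (plus) and 26505590 to 26562128 (minus). Jun lies on chromosome 4 at 95049034 to 95052222, Atf3 on chromosome 1 at 191170296 to 191218039 and Fosb on chromosome 7 at 19302696 to 19310051, all on the minus strand.

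The bases before the start sites of 4 members are shown. These members, Fos, Jun, Atf3 and Dusp1, were called in sets of comparisons that overlapped but were not the same. Sites for CREB, ATF and AP-1 proteins are the known early response elements of such promoters. The sequences are the 250 bases upstream of the RefSeq start, from the gene's own strand. Windows were found for 8 of the 10 members, all but Egr1 and Ier2. Capitals mark the matches listed after them. The windows are chr12:85473640-85473889 (plus strand) for Fos, chr4:95052223-95052472 (minus) for Jun, chr1:191183334-191183583 (minus) for Atf3 and chr17:26508473-26508722 (minus) for Dusp1, all in GRCm38.p6. The Atf3 and Dusp1 windows lie inside the longest annotated span of their genes, so other start sites exist upstream.
Fos: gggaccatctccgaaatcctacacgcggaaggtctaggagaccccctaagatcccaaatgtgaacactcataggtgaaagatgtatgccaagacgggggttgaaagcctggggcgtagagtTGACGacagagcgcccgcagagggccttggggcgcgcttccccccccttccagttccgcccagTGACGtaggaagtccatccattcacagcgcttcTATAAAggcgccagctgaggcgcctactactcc
Jun: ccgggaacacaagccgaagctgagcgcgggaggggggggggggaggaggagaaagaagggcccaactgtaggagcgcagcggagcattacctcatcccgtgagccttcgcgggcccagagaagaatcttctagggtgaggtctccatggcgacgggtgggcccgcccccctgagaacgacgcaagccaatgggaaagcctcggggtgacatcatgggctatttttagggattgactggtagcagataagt
Atf3: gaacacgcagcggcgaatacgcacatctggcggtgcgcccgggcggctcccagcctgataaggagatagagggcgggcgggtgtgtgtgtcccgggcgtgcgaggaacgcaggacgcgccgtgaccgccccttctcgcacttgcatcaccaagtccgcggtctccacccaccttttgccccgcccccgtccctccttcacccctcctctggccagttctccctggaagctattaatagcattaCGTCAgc
Dusp1: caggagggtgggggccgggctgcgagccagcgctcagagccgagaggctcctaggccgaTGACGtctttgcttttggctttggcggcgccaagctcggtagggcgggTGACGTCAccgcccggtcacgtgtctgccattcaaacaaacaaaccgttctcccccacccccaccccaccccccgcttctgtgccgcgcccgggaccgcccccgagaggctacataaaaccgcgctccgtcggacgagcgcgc
In all, 8 motifs were searched on both strands, with positions counted back from -1 at the last base before the start. TGACG, the core of the cAMP response element, was found in 5 of the 8 windows (Fos, Fosb, Junb, Atf3 and Dusp1) and in 17.8% of 32851 windows of the same length. In Fos it lay at -129 to -125 and at -66 to -62, and in Atf3 on the opposite strand at -7 to -3. The full palindrome TGACGTCA was found in Dusp1 at -143 to -136, where it overlaps TGACG on both strands, and in 1.55% of all windows. Dusp1 held a further TGACG at -191 to -187. Fos held TATAAA at -33 to -28, present in 12.4% of all windows. CAGGAA, which holds an ETS-type core, was found in Fosb, Junb and Ier3 and in 25.7% of all windows, and GCGNGGGCG, the EGR motif, in Fosb and in 4.70%. CCGGAA (12.0% of all windows), the AP-1 motif TGANTCA (6.75%) and the CArG box bound by SRF (1.47%) were found in none of the 8 windows. Bases more than 250 upstream were not searched, nor were Egr1 and Ier2, so elements there would be missed. Only exact matches were counted. The Jun window held none of the 8 motifs, but it holds tgacatca, a near match to TGACGTCA. The Jund window ended at 70697738, before the annotated gene start at 70698949. These matches describe letters in these windows and show no binding.

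Doxycycline-treated embryoid bodies were first compared with untreated ones at day 2. No doxycycline-treated group lacks the transgene, so effects of Etv2 and of doxycycline itself cannot be told apart in any comparison. Fos was higher and Egr1 was lower with doxycycline, and these were the largest differences in each direction among the 9 tested members. The members were chosen with earlier results of these data known, so their calls and median here are not independent evidence. Of the 9 tested members, 5 were higher (Fos, Junb, Atf3, Ier2 and Dusp1) and 1 was lower (Egr1) at an edgeR adjusted p under 0.05. Among all 14548 genes tested, 3.11% were called higher and 1.56% lower. The median log2 fold change of the tested members was 0.39, against 0.00 over all genes.

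Fos had 20.3 and 24.3 CPM in doxycycline libraries and 5.80 and 4.80 CPM in untreated libraries of day 2. Both doxycycline libraries were above both untreated ones. The log2 fold change was 2.06 ± 0.24 (SE), a 4.18-fold difference (edgeR quasi-likelihood test with Benjamini-Hochberg adjustment, adjusted p = 5.84e-05). It was 2.19 without doxycycline replicate 1 and 1.93 without replicate 2. Fos lies on the plus strand of chromosome 12 at 85473890 to 85477273 (GRCm38), and its exons overlap no other annotated gene.

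Egr1 had 12.5 and 12.8 CPM in doxycycline libraries and 31.6 and 28.6 CPM in untreated libraries of day 2. The groups did not overlap, and the doxycycline libraries differed from each other by less than the untreated ones did. Its log2 fold change was -1.25 ± 0.16 (edgeR, adjusted p = 0.000161), and -1.24 and -1.27 without doxycycline replicates 1 and 2. Egr1 lies on the plus strand of chromosome 18 at 34859823 to 34864984. Within a library, the ratio of Fos to Egr1 counts was 1.63 and 1.90 in doxycycline libraries and 0.184 and 0.168 in untreated libraries of day 2.

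The other 4 members called higher at day 2 differed by less. Junb had 47.8 and 30.2 CPM in doxycycline libraries and 19.3 and 20.4 CPM in untreated ones (log2 0.98 ± 0.21, edgeR adjusted p = 0.0134). Atf3 had 10.3 and 8.99 CPM with doxycycline and 6.24 and 5.40 CPM without (log2 0.73 ± 0.18, adjusted p = 0.0303). Both genes were higher in both doxycycline libraries, but the doxycycline libraries of Junb lay 0.67 apart on the log2 scale. Ier2 had 144 and 92.4 CPM with doxycycline and 73.0 and 79.5 CPM without (log2 0.63 ± 0.17, adjusted p = 0.0489). Dusp1 had 68.7 and 75.5 CPM with doxycycline and 54.2 and 55.6 CPM without (log2 0.39 ± 0.10, adjusted p = 0.0375). In Ier2 the difference rested mainly on doxycycline replicate 1, without which the log2 fold change was 0.28 (adjusted p = 0.110). The Junb value without that library was 0.60 (adjusted p = 0.0228).

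These 4 calls depended on which libraries were in the fit. Without either untreated day 2 library, 1 member (Fos) was called higher in place of 5, as with only the compared groups fitted. The count was 2 without doxycycline day 2.5 replicate 1. It was 3 without doxycycline day 2 replicate 1, doxycycline day 2.5 replicate 2, either Flk1-positive or either untreated day 2.5 library, and with limma-voom. The Junb call was lost without untreated day 2 replicate 1 or 2 (adjusted p = 0.157 and 0.102). The Atf3, Ier2 and Dusp1 calls were lost in 8, 9 and 9 of 18 alternative fits, with adjusted p from 0.0544 to 0.282, 0.0556 to 0.341 and 0.0523 to 0.315. The Fos and Egr1 calls held in all 18.

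Jun, Jund and Ier3 were not called at day 2. Jun had 29.8 and 24.9 CPM with doxycycline and 21.7 and 20.8 CPM without (log2 0.37 ± 0.13, edgeR adjusted p = 0.151). It passed the threshold without doxycycline replicate 2 (log2 0.49, adjusted p = 0.00914). Jund had 118 and 75.4 CPM with doxycycline and 82.3 and 89.5 CPM without, and Ier3 had 3.97 and 2.15 CPM with and 2.47 and 2.67 CPM without. Both overlapped, and their log2 fold changes of 0.17 and 0.26 turned to -0.19 and -0.26 without doxycycline replicate 1. Without replicate 2, Jund was 0.46 higher on the log2 scale (adjusted p = 0.0356). The exons of Jund overlap the antisense gene Gm11175 over 52.6% of their length. Since the strand setting of the counting is not given, Jund values are uncertain throughout.

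**Figure D2:**
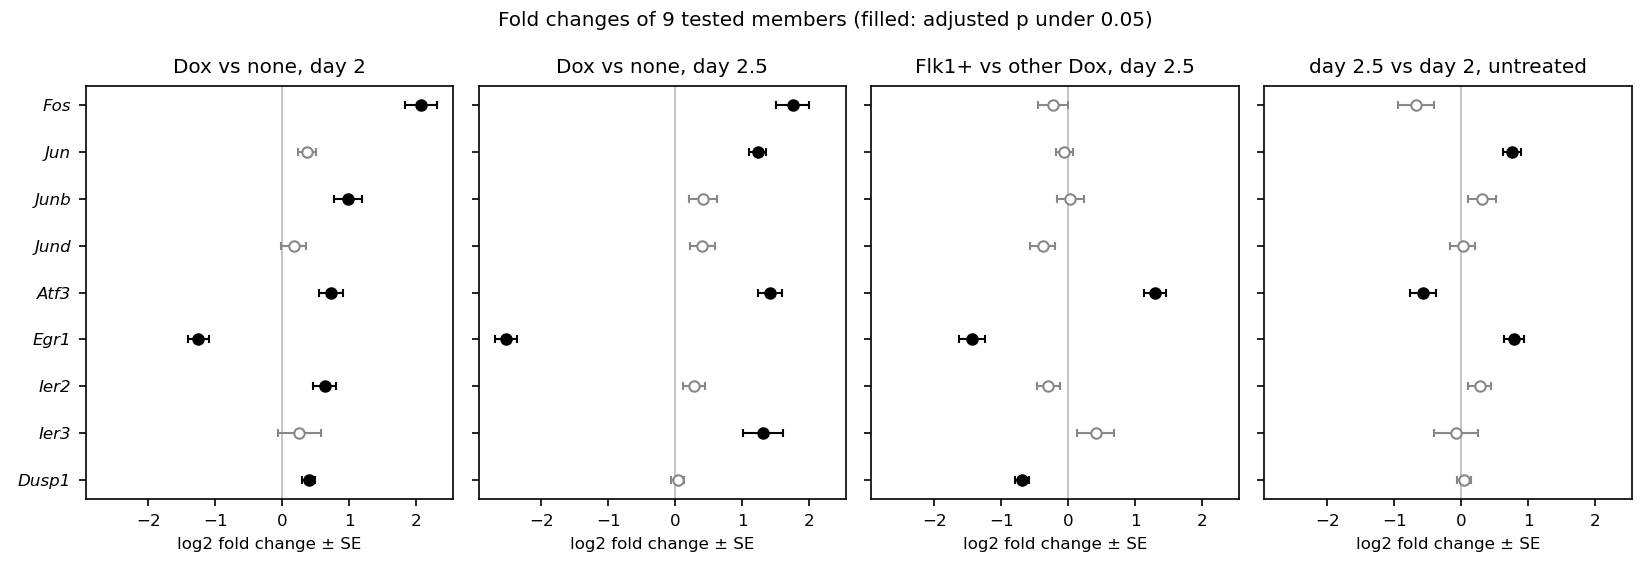
Log2 fold change ± SE of the 9 tested members in 4 comparisons, with filled points for edgeR adjusted p under 0.05. Egr1 lies left of 0 in the first 3 panels (-1.25, -2.53 and -1.43) and right of 0 in untreated embryoid bodies of day 2.5 against day 2 (0.79).

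At day 2.5 the same comparison of doxycycline-treated with untreated embryoid bodies again had Fos higher and Egr1 lower, with Jun, Atf3 and Ier3 also higher. Of the 9 tested members, 4 were called higher (Fos, Jun, Atf3 and Ier3) and 1 lower (Egr1). Of all genes tested, 16.1% were called higher and 13.8% lower. The median log2 fold change of the members was 0.41, against 0.00 over all genes.

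Egr1 had 9.48 and 8.52 CPM in doxycycline libraries and 48.3 and 55.5 CPM in untreated libraries of day 2.5. The doxycycline level was 5.77-fold lower (log2 -2.53 ± 0.16, edgeR adjusted p = 1.14e-08). Fos had 9.06 and 13.5 CPM in doxycycline libraries and 4.13 and 2.57 CPM in untreated ones (log2 1.75 ± 0.25, adjusted p = 6.49e-05). Neither gene's groups overlapped. The Fos to Egr1 count ratio was 0.957 and 1.58 in doxycycline libraries and 0.0856 and 0.0463 in untreated libraries of day 2.5.

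Jun, the main partner of Fos proteins in AP-1, had 80.2 and 89.0 CPM in doxycycline libraries and 32.4 and 39.7 CPM in untreated ones (log2 1.23 ± 0.12, edgeR adjusted p = 2.02e-06). Atf3 had 11.2 and 9.73 CPM with doxycycline and 3.61 and 4.23 CPM without (log2 1.41 ± 0.18, adjusted p = 2.6e-05). Ier3 had 7.14 and 4.85 CPM with doxycycline and 2.70 and 2.16 CPM without (log2 1.31 ± 0.30, adjusted p = 0.00397). All 3 had both doxycycline libraries above both untreated ones, and the Ier3 pair was the widest apart. The Ier3 call was lost without doxycycline day 2.5 replicate 1 (adjusted p = 0.0708) or untreated day 2.5 replicate 2 (0.0565). The exons of Jun overlap the opposite-strand gene Junos over 7.3% of their length.

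Junb, Jund, Ier2 and Dusp1 were not called at day 2.5. Junb had 37.1 and 28.6 CPM with doxycycline and 24.6 and 24.7 CPM without (log2 0.41 ± 0.20, edgeR adjusted p = 0.146). Jund had 122 and 109 CPM with doxycycline and 92.7 and 81.8 CPM without (log2 0.41 ± 0.18, adjusted p = 0.115). Ier2 had 115 and 109 CPM with doxycycline and 92.2 and 92.5 CPM without (log2 0.27 ± 0.17, adjusted p = 0.242). In these 3 genes the groups did not overlap, which with 2 libraries a group is alone weak evidence of a difference. All 3 passed the threshold without either doxycycline day 2 library, in the fit of the compared groups alone and once gene length and GC trends were removed, which made 7 members called higher in place of 4. Dusp1 had 58.0 and 57.9 CPM with doxycycline and 55.0 and 58.0 CPM without, and its groups overlapped (log2 0.04 ± 0.10, adjusted p = 0.823).

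The difference between the effects at day 2.5 and at day 2 was tested as an interaction. The effect on Jun was larger at day 2.5, by 0.87 ± 0.18 on the log2 scale (edgeR, adjusted p = 0.00551). The effect on Egr1 was more negative at day 2.5, with a log2 difference of -1.27 ± 0.22 (adjusted p = 0.00155). For Fos the interaction was -0.31 ± 0.34 (adjusted p = 0.611), a standard error that leaves the difference poorly determined. Of the 9 tested members, 1 was called higher and 1 lower, and of all genes 6.87% were called higher and 5.24% lower. Without doxycycline day 2 replicate 1 the counts were 3 and 2, adding Jund, Ier3 and Dusp1, and without replicate 2 they were 1 and 3, adding Junb and Ier2. With gene length and GC trends removed, 1223 genes were called higher and 1428 lower (46.1% of the calls higher), against 1000 and 763 (56.7%) in the fit used here.

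The comparison of Flk1-positive with the other doxycycline-treated samples of day 2.5 asks how samples labelled by the receptor differ. Atf3 was higher, and Egr1 and Dusp1 were lower in Flk1-positive samples. Thus 1 of the 9 tested members was called higher and 2 were called lower, while 20.5% of all genes were called higher and 21.3% lower. The median log2 fold change of the members was -0.23, against -0.004 over all genes. This comparison shares the other doxycycline samples with the preceding one. A sort by Flk1, where one was made for these samples, moves with the group and its part in the result cannot be told apart.

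Atf3 had 24.7 and 26.9 CPM in Flk1-positive libraries and 11.2 and 9.73 CPM in the other doxycycline libraries (log2 1.30 ± 0.16, edgeR adjusted p = 1.89e-05). Egr1 had 4.01 and 2.54 CPM in Flk1-positive libraries and 9.48 and 8.52 CPM in the others (log2 -1.43 ± 0.19, adjusted p = 3e-05). Dusp1 had 38.3 and 33.3 CPM in Flk1-positive libraries and 58.0 and 57.9 CPM in the others (log2 -0.69 ± 0.10, adjusted p = 8.72e-05). The groups of these 3 genes did not overlap, and the calls held in all 18 alternative fits.

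Fos and Jun overlapped between these groups. Fos had 10.2 and 9.01 CPM in Flk1-positive libraries and 9.06 and 13.5 CPM in the others (log2 -0.23 ± 0.23, edgeR adjusted p = 0.438). Jun had 86.3 and 76.4 CPM in Flk1-positive libraries and 80.2 and 89.0 CPM in the others (log2 -0.06 ± 0.12, adjusted p = 0.742). Junb also overlapped, with 39.5 and 27.4 CPM in Flk1-positive libraries and 37.1 and 28.6 CPM in the others (log2 0.03 ± 0.20). Ier3 had 7.39 and 8.58 CPM in Flk1-positive libraries and 7.14 and 4.85 CPM in the others (log2 0.41 ± 0.28, adjusted p = 0.256). Jund had 103 and 74.7 CPM in Flk1-positive libraries and 122 and 109 CPM in the others (log2 -0.38 ± 0.18, adjusted p = 0.110). Its log2 fold change lay between -0.62 and 0.16 in the 18 alternative fits, so its direction depended on the fit. Ier2 had 104 and 78.4 CPM in Flk1-positive libraries and 115 and 109 CPM in the others (log2 -0.29 ± 0.17, adjusted p = 0.173). Jund and Ier2 passed the threshold without either doxycycline day 2 library, which made 4 members called lower in place of 2.

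Set against untreated embryoid bodies of day 2.5, Flk1-positive samples had the largest Egr1 difference of the 7 comparisons made. Egr1 had 4.01 and 2.54 CPM in Flk1-positive libraries and 48.3 and 55.5 CPM in untreated ones, a 15.6-fold lower level (log2 -3.96 ± 0.19, edgeR adjusted p = 9.9e-11). Atf3 was higher by a log2 of 2.72 ± 0.18, Ier3 by 1.72 ± 0.30, Fos by 1.52 ± 0.25 and Jun by 1.18 ± 0.13, with adjusted p from 6.94e-09 to 0.000211. Dusp1 was lower (log2 -0.66 ± 0.10, adjusted p = 7.22e-05). These 4 members called higher and 2 called lower stand beside 28.6% and 26.6% of all genes. The Flk1-positive to untreated comparison shares its untreated samples with the day 2.5 doxycycline comparison, so they are not independent. Doxycycline, the Flk1 label and any sort by Flk1 differ together between these groups, so their parts cannot be told apart. Ier2 and Jund overlapped here, but Jund was higher by 0.58 (adjusted p = 1.9e-05) once gene length and GC trends were removed, against 0.02 ± 0.18 in the fit used here. Junb (log2 0.44 ± 0.21, adjusted p = 0.0813) was called in 8 of 18 alternative fits, among them those without either doxycycline day 2 library and without Flk1-positive replicate 2 (0.64), and it was 0.71 (adjusted p = 0.000169) once the trends were removed.

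Egr1, Jun and Atf3 were the members called with time in untreated embryoid bodies. Egr1 had 48.3 and 55.5 CPM at day 2.5 and 31.6 and 28.6 CPM at day 2 (log2 0.79 ± 0.15, edgeR adjusted p = 0.00293). Jun had 32.4 and 39.7 CPM at day 2.5 and 21.7 and 20.8 CPM at day 2 (log2 0.76 ± 0.13, adjusted p = 0.00137). Both genes were higher in both later libraries. Atf3 was lower at day 2.5 (log2 -0.57 ± 0.19, adjusted p = 0.0498), a call lost in 16 of 18 alternative fits. The counts of 2 members higher and 1 lower stand beside 9.22% and 10.3% of all genes. The Egr1 call was lost without untreated day 2 replicate 2 (adjusted p = 0.0539) or untreated day 2.5 replicate 2 (0.0645), leaving 1 member higher. The 1 lower became 0 when any single untreated, doxycycline day 2.5 or Flk1-positive library was left out, except untreated day 2.5 replicate 1, without which Fos was called in place of Atf3. It became 2, with Fos, when either doxycycline day 2 library was left out.

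In doxycycline-treated embryoid bodies, Egr1 went the other way with time. It had 9.48 and 8.52 CPM at day 2.5 and 12.5 and 12.8 CPM at day 2 (log2 -0.49 ± 0.17, edgeR adjusted p = 0.0248). Fos had 9.06 and 13.5 CPM at day 2.5 and 20.3 and 24.3 CPM at day 2 (log2 -0.98 ± 0.22, adjusted p = 0.00194). Jun had 80.2 and 89.0 CPM at day 2.5 and 29.8 and 24.9 CPM at day 2 (log2 1.63 ± 0.13, adjusted p = 1.83e-07). None of these 3 genes overlapped between the days. Without doxycycline day 2 replicate 1 the log2 fold changes were -0.51 for Egr1, -1.11 for Fos and 1.76 for Jun, and Jund was also called higher (0.62). Without replicate 2 they were -0.47, -0.85 and 1.502, and Junb and Ier2 were also called lower (-0.54 and -0.37), while the Dusp1 call was lost (-0.25, adjusted p = 0.0525). Ier3 was also called higher (log2 0.97 ± 0.30, adjusted p = 0.0150) and Dusp1 lower (log2 -0.31 ± 0.10, adjusted p = 0.0186). These 2 members higher and 3 lower stand beside 22.9% and 23.1% of all genes. The 3 lower became 1 (Fos) without either doxycycline day 2.5 library and in a fit of these 2 groups alone. The 2 higher became 1 (Jun) without doxycycline day 2 replicate 2, without doxycycline day 2.5 replicate 1 and with only the compared groups fitted.

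The genes that surround the immediate early response were read next, first a list of genes linked to ERK signalling. They are called ERK feedback genes here, though not all of them, such as Etv4 and Etv5, feed back on it. At day 2, of 16 ERK feedback genes 5 were higher with doxycycline and 1 (Etv5) was lower, beside 3.11% and 1.56% of all genes, with a list median of 0.28 on the log2 scale against 0.00 over all genes. Dusp6, which encodes a phosphatase of ERK, had 653 ± 32.4 CPM with doxycycline and 240 ± 8.46 CPM without (log2 1.44 ± 0.09, edgeR adjusted p = 4.93e-08). Dusp4, another MAP kinase phosphatase, rose by a log2 of 0.95 ± 0.10. The receptor signalling inhibitors Spry4 and Spry2 rose by 0.89 ± 0.12 and 0.57 ± 0.09. The lower count of 1 was 2 without doxycycline day 2 replicate 2, under DESeq2, with limma-voom and without the low-count filter, and 0 without either untreated day 2 library. The higher count was 3 with only the compared groups fitted.

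At day 2.5 the same list had 4 higher and 9 lower members, beside 16.1% and 13.8% of all genes, with a median of -0.42. Etv4, a PEA3-type ETS factor induced by FGF signalling, was at 9.18 ± 0.983 CPM with doxycycline and 82.1 ± 0.433 CPM without (log2 -3.16 ± 0.11, edgeR adjusted p = 1.11e-11). Its paralog Etv5 was at 106 ± 0.41 CPM with doxycycline and 392 ± 21.2 CPM without (log2 -1.88 ± 0.08, adjusted p = 1.65e-10). Dusp6 was 0.34 lower (287 ± 14.1 CPM with doxycycline and 363 ± 16.01 CPM without, adjusted p = 0.00701). Its interaction with day was -1.78 ± 0.12 (adjusted p = 2.01e-07). Phlda1, an early growth factor response gene, rose by a log2 of 3.43 ± 0.15. In Flk1-positive against the other doxycycline samples, 4 were higher and 8 lower, beside 20.5% and 21.3% of all genes, and Etv5 was at 12.3 ± 0.11 CPM in Flk1-positive samples (log2 -3.11 ± 0.09, adjusted p = 1.85e-11). Summed over the list, levels were 1284 to 1333 CPM in Flk1-positive libraries, 1469 to 1490 CPM in the other doxycycline libraries and 2106 to 2206 CPM in untreated libraries of day 2.5. At day 2 the sums were 2482 to 2668 CPM with doxycycline and 2029 to 2084 CPM without. Dusp6 weighed heavily in the day 2 sums, at 653 CPM with doxycycline and 240 CPM without, while Etv5 was at 359 and 475 CPM. The sum was higher with doxycycline at day 2 and lower at day 2.5. The part of the ERK feedback genes in the Fos and Egr1 results was not tested.

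**Figure D3:**
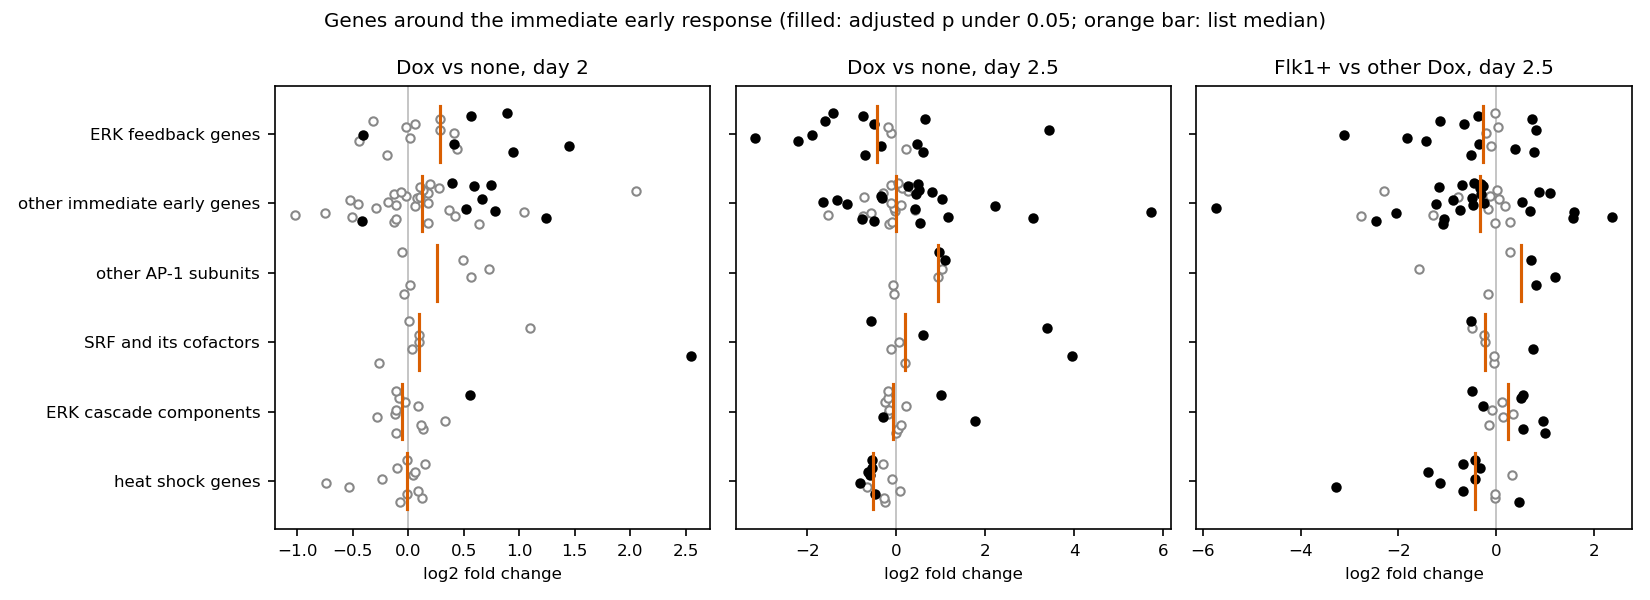
Log2 fold change of every tested gene in 6 lists, in doxycycline-treated against untreated embryoid bodies at each day and in Flk1-positive against other doxycycline samples, with filled points for edgeR adjusted p under 0.05 and orange bars for list medians. ERK feedback genes have medians of 0.28, -0.42 and -0.28 in the 3 panels, each of which has its own horizontal range.

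Of 37 further immediate early genes, 36 were tested. At day 2, 7 were higher with doxycycline and 1 lower (Ctgf, log2 -0.42), beside 3.11% and 1.56% of all genes, with a median of 0.12. The higher ones included Dusp2, a nuclear MAP kinase phosphatase (log2 1.24 ± 0.22), Ier5 (0.78 ± 0.16), the kinase-like regulator Trib1 (0.59 ± 0.10) and the transcription factor Klf10 (0.52 ± 0.10), with edgeR adjusted p from 0.00134 to 0.00765. The count of 7 was 3 and 1 without untreated day 2 replicates 1 and 2, 11 without doxycycline day 2 replicate 2, and 0 with only the compared groups fitted. The Ctgf call was lost without either untreated day 2, doxycycline day 2.5 or Flk1-positive library, with limma-voom and with only the compared groups fitted. Ctgf was named after its value was seen.

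At day 2.5, 12 of these 36 genes were higher with doxycycline and 7 lower, beside 16.1% and 13.8% of all genes, with a median of 0.00. Myc had 47.5 ± 0.702 CPM with doxycycline and 148 ± 1.47 CPM without (log2 -1.64 ± 0.09, edgeR adjusted p = 1.16e-09). Gadd45g, a growth arrest gene, had 23.9 ± 0.848 CPM with doxycycline and 0.437 ± 0.495 CPM without (log2 5.73 ± 0.36, adjusted p = 1.74e-08). Its untreated level was near the counting limit, and the log2 fold change lay between 4.91 and 8.02 in the 18 alternative fits. Dusp2 rose again, by 3.07 ± 0.23. The 7 lower were 3 without untreated day 2.5 replicate 2. In Flk1-positive against the other doxycycline samples, 7 were higher and 18 lower, beside 20.5% and 21.3% of all genes, with a median of -0.32. Egr2, a paralog of Egr1, was higher there at 20.7 ± 1.98 CPM in Flk1-positive samples and 3.99 ± 0.08 CPM in the others (log2 2.38 ± 0.25, adjusted p = 3.74e-06). Klf2, a transcription factor, had 0.259 ± 0.308 CPM in Flk1-positive samples and 12.7 ± 0.927 CPM in the others (log2 -5.73 ± 0.36, adjusted p = 1.98e-08). The Flk1-positive level of Klf2 was near the counting limit, and the log2 fold change lay between -8.09 and -4.71 in the 18 alternative fits. Ctgf fell by 2.46 on the log2 scale.

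Of 8 other AP-1 subunits, 6 were tested, and none was called at day 2 by edgeR, DESeq2 or limma-voom or in any other of the 18 alternative fits (1 higher and 0 lower at an unadjusted p under 0.05 in edgeR). At day 2.5, Fosl2 and Jdp2 were higher with doxycycline, as were 16.1% of all genes. Fosl2, a Fos family member, had 7.85 ± 0.358 CPM with doxycycline and 3.69 ± 0.113 CPM without (log2 1.09 ± 0.20, edgeR adjusted p = 7.18e-04). Jdp2, a repressor of AP-1, had a log2 of 0.96 ± 0.32 (adjusted p = 0.0319), lost without doxycycline replicate 2, either Flk1-positive library or either untreated library of day 2.5, which left 1 called. In Flk1-positive samples Fosl2, Atf7 and Batf3 were higher than in the other doxycycline samples (log2 0.71, 0.83 and 1.21), beside 20.5% of all genes. That count of 3 was 1 without either of the other doxycycline libraries or Flk1-positive replicate 2, and 0 without Flk1-positive replicate 1.

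Among 7 genes of SRF and its cofactors, Elk3, a ternary complex factor, was the 1 called higher at day 2 (log2 2.54 ± 0.12, edgeR adjusted p = 2.86e-09). Of all genes, 3.11% were called higher there. At day 2.5, 3 were higher with doxycycline and 1 (Srf) was lower, beside 16.1% and 13.8% of all genes. Elk3 had 140 ± 6.47 CPM with doxycycline and 9.02 ± 0.079 CPM without, and Srf had 118 ± 0.188 CPM with and 174 ± 1.57 CPM without (log2 -0.56 ± 0.08, adjusted p = 1.24e-04). In Flk1-positive samples 1 (Elk4) was higher and 1 (Srf) lower, beside 20.5% and 21.3% of all genes. The day 2 counts were 2 higher without doxycycline replicate 1, and 2 lower without replicate 2. The 3 higher at day 2.5 were 1 without either untreated library of that day. In Flk1-positive samples the lower count was 3 without either doxycycline day 2 library, and the Elk4 call was lost when any 1 of the 4 compared libraries was left out. The Srf call in Flk1-positive samples was lost with gene length and GC trends removed (log2 up to -0.16, adjusted p up to 0.150).

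Of 12 ERK cascade components, Shc1, an adaptor of receptor tyrosine kinases, was the one called at day 2 (log2 0.55 ± 0.09, edgeR adjusted p = 9.32e-04). Of all genes, 3.11% were called higher and 1.56% lower at day 2. Shc1 was not called with only the compared groups fitted. At day 2.5, 2 were higher with doxycycline (Shc1 and the scaffold Ksr1) and 1 was lower, beside 16.1% and 13.8% of all genes. The lower one was Map2k1, which encodes a kinase that acts on ERK (log2 -0.29 ± 0.09, edgeR adjusted p = 0.0308). The lower count at day 2.5 was 4 without either doxycycline day 2 library, 0 when any 1 of the compared or untreated day 2 libraries was left out, 2 under DESeq2 or without the low-count filter, 3 with only the compared groups fitted and 5 once gene length and GC trends were removed. In Flk1-positive against the other doxycycline samples, 5 were higher and 2 lower, beside 20.5% and 21.3% of all genes. The RAF kinase Araf was higher by a log2 of 1.004 ± 0.11 (adjusted p = 5.5e-06). The lower ones were the ERK kinase Mapk3 (log2 -0.26 ± 0.08) and the exchange factor Sos1 (-0.49 ± 0.14), named after their values were seen. Their count was 0 without doxycycline day 2.5 replicate 1 or Flk1-positive replicate 1, and 1 without replicate 2 of either group or once trends were removed. At day 2, 2 were higher and 1 lower without doxycycline replicate 1, and 1 was lower without replicate 2 or once trends were removed.

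Heat shock genes encode chaperones that respond to protein stress. Of 12, none was called at day 2 by edgeR, DESeq2 or limma-voom (0 higher and 2 lower at an unadjusted p under 0.05 in edgeR). When either doxycycline day 2 library was left out or gene length and GC trends were removed, 1 was called lower, and 2 with the replicate block and the trends removed. At day 2.5, 6 were lower with doxycycline and 0 higher, beside 13.8% and 16.1% of all genes, with a median of -0.51. The mitochondrial chaperone Hspd1 (log2 -0.54 ± 0.08) and the cytosolic chaperone Hsp90aa1 (-0.48 ± 0.08) were among them. In Flk1-positive samples 8 were lower and 1 was higher than in the other doxycycline samples, beside 21.3% and 20.5% of all genes, with a median of -0.43, and the small heat shock protein Hspb1 fell by 1.39 on the log2 scale. The 1 higher was 0 without doxycycline day 2.5 replicate 2 and 2 without either untreated day 2.5 library and in 7 of the 8 alternatives that leave out no library. Summed heat shock levels were 13690 to 14410 CPM with doxycycline and 13550 to 13620 CPM without at day 2. They were 9664 to 10560 CPM in Flk1-positive libraries, 14910 to 15590 CPM in the other doxycycline libraries and 14540 to 15940 CPM in untreated libraries of day 2.5. Their part in the members' results was not tested.

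Cell type markers moved with the same groups, and within a list they did not all move one way. Their counts stand beside these shares of all genes. With doxycycline, 3.11% were called higher and 1.56% lower at day 2, and 16.1% and 13.8% at day 2.5. In Flk1-positive against the other doxycycline samples the shares were 20.5% and 21.3%. The summed level of 7 endothelial markers was 148 to 190.7 CPM with doxycycline and 49.9 to 53.2 CPM without at day 2, with Emcn at 0 in both groups. At day 2.5 it was 1383 to 1467 CPM in Flk1-positive libraries, 602.6 to 634.9 CPM in the other doxycycline libraries and 14.2 to 15.2 CPM in untreated ones. Most of the Flk1-positive sum was Kdr, the gene of Flk1 itself (997 CPM in Flk1-positive and 419 CPM in the other doxycycline samples). Of the 6 endothelial markers tested, 3 were called higher with doxycycline at day 2 and all 6 at day 2.5. In Flk1-positive against the other doxycycline samples, 4 were higher and 1, Pecam1, was lower (log2 -0.63, edgeR adjusted p = 0.0383), and Cdh5 was not called (log2 0.11). The Pecam1 call was lost without untreated day 2 replicate 2, doxycycline day 2.5 replicate 2 or either Flk1-positive library, and with limma-voom. Blood markers (6 genes) summed to 109 to 113.1 CPM with doxycycline and 17.4 to 17.6 CPM without at day 2. At day 2.5 they summed to 1722 to 1813 CPM in Flk1-positive libraries, 669.7 to 687 CPM in the other doxycycline libraries and 12.5 to 12.9 CPM in untreated libraries, with Hbb-bh1 at 0 in both doxycycline groups. Of the 5 tested, 2 were called higher with doxycycline at day 2 and 5 at day 2.5, and 4 were higher in Flk1-positive than in the other doxycycline samples.

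Summed levels of 4 primitive streak markers were 1134 to 1244 CPM with doxycycline and 1158 to 1188 CPM without at day 2. That sum holds called changes of opposite sign, with Mixl1 higher (log2 0.82, edgeR adjusted p = 5.84e-05) and Eomes and Mesp1 lower (log2 -0.50 and -0.99, adjusted p = 0.0109 and 0.0379). The 2 lower were 0 without either untreated day 2 library or with only the compared groups fitted, and 1 without doxycycline day 2 replicate 2 or any 1 Flk1-positive or untreated day 2.5 library. At day 2.5 the sums were 710.2 to 739 CPM in Flk1-positive libraries, 779.7 to 806.2 CPM in the other doxycycline libraries and 2485 to 2844 CPM in untreated ones, and all 4 were called lower with doxycycline than without. In Flk1-positive against the other doxycycline samples, T was higher (561 CPM in Flk1-positive and 362 CPM in the others, log2 0.63). The other 3 were called lower there, by log2 fold changes of -1.38 for Mixl1, -1.40 for Eomes and -2.36 for Mesp1.

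Pluripotency markers (3 genes) summed to 1313 to 1786 CPM with doxycycline and 1689 to 1840 CPM without at day 2, where Nanog was lower (log2 -1.31, edgeR adjusted p = 3.58e-06). Without doxycycline day 2 replicate 1, 2 were called lower. At day 2.5 they summed to 806.1 to 864.7 CPM in Flk1-positive libraries, 826.1 to 855.1 CPM in the other doxycycline libraries and 1256 to 1383 CPM in untreated ones. Pou5f1 carries these sums (827 CPM in Flk1-positive and 725 CPM in the other doxycycline samples). Nanog had 2.07 CPM in Flk1-positive samples and 73.4 CPM in the others (log2 -5.19), and Sox2 had 6.39 CPM in Flk1-positive samples and 42.5 CPM in the others (log2 -2.74), both called lower. Pou5f1 was not called (log2 0.19), but 1 pluripotency marker was called higher without either doxycycline day 2 library, with only the compared groups fitted and once gene length and GC trends were removed.

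Leukocyte markers (4 genes) summed to 22.3 to 31.5 CPM with doxycycline and 18.3 CPM without at day 2. At day 2.5 they summed to 76.8 to 88.6 CPM in Flk1-positive libraries, 40.1 to 41.3 CPM in the other doxycycline libraries and 11.2 to 11.4 CPM in untreated ones, with Ptprc, the defining one, at 0 in both doxycycline groups. Of the 2 tested, Coro1a was higher in Flk1-positive than in the other doxycycline samples (log2 1.16) and Laptm5 was not called (log2 -0.17). Fibroblast markers (7 genes) summed to 33.7 to 39.8 CPM with doxycycline and 25.9 to 32.1 CPM without at day 2. Their day 2.5 sums were 25.8 to 28.7 CPM in Flk1-positive libraries, with Col3a1, Dcn and Lum at 0, 36.7 to 45.1 CPM in the other doxycycline libraries and 39.3 to 40.9 CPM in untreated ones. Of the 5 fibroblast markers tested, 2 (Thy1 and Col3a1) were lower and 1 (Col1a2) was higher in Flk1-positive than in the other doxycycline samples. The 2 lower were 1 without Flk1-positive replicate 1, and the Col1a2 call was lost when any 1 library other than the doxycycline day 2 ones was left out. Endoderm markers (4 genes) summed to 7.84 to 12.1 CPM with doxycycline and 6.71 to 7.28 CPM without at day 2. Their day 2.5 sums were 38.6 to 45.5 CPM in Flk1-positive libraries, 19.8 to 20.5 CPM in the other doxycycline libraries and 24.9 to 29.5 CPM in untreated ones. In Flk1-positive against the other doxycycline samples Sox17 was higher (log2 1.94) and Foxa2 was lower (log2 -3.81), both called. The part of these markers in the members' results was not tested.

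The profiles most like those of Fos and Egr1 were taken as the 3 genes with the smallest root mean square difference of centred log2 CPM over the 10 libraries, among 10749 genes with a mean of at least 5 CPM. For Fos these were Kirrel2, a cell adhesion protein of the immunoglobulin superfamily (0.32), Lfng, a glycosyltransferase that modifies Notch (0.39), and Psors1c2 (0.48). The spread of Fos itself over the libraries was 0.96 on the same scale. Kirrel2 averaged 34.2 ± 0.33 CPM with doxycycline and 11.03 ± 1.55 CPM without at day 2. At day 2.5 it averaged 14.4 ± 1.29 CPM in Flk1-positive samples, 21.6 ± 0.97 CPM in the other doxycycline samples and 8.34 ± 2.12 CPM in untreated ones (SD, n = 2 each). For Egr1 they were Prickle1, a planar cell polarity protein (0.32), Sema6a, a semaphorin (0.35), and Pdgfra, a receptor of mesodermal cells (0.36), with a spread of Egr1 of 1.39. Pdgfra averaged 14.7 ± 2.02 CPM with doxycycline and 23.0 ± 0.93 CPM without at day 2. At day 2.5 it averaged 2.65 ± 1.57 CPM in Flk1-positive samples, 6.02 ± 1.16 CPM in the other doxycycline samples and 30.5 ± 3.99 CPM in untreated ones. These likenesses rest on 10 libraries in 5 groups and describe closeness of the centred levels, not an identical order of the groups. Lfng averaged 7.96 CPM in Flk1-positive and 5.07 CPM in the other doxycycline samples, where Fos averaged 9.58 and 11.3 CPM.

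**Figure D4:**
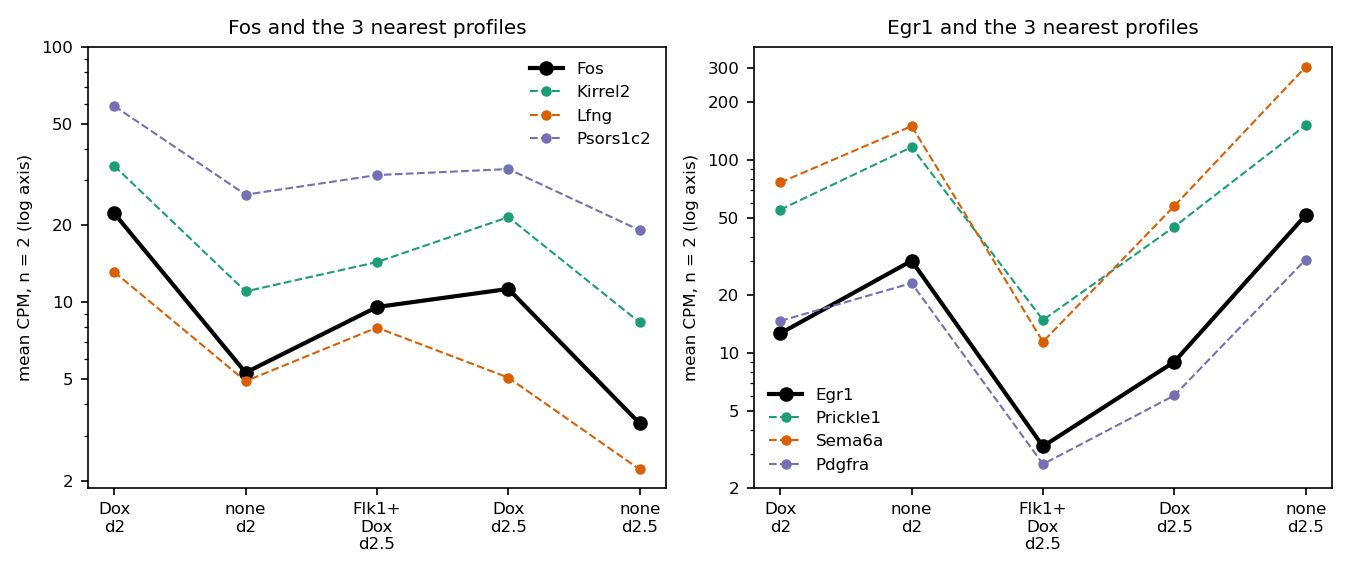
Mean CPM (n = 2, log axis) of Fos and Egr1 and of the 3 genes nearest to each in profile, over the 5 groups. Fos and its neighbours are highest in doxycycline day 2 samples, and Egr1 and its neighbours are highest in untreated day 2.5 and lowest in Flk1-positive samples.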

How the data were processed

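The deposited values are raw counts per gene, whole numbers with no normalization by the authors. Per the submitters' processing notes, TopHat, HTSeq and DESeq2 were used on mm10, with no versions. The annotation, strand setting and handling of multiply mapped reads of the counting are not stated in the sources used here. The table has 23429 entries, of which 92 are spike-in sequences with 0 counts. They were left out. Totals were 18074070 to 36068329 per library, so a level under 0.0824 to 0.164 CPM (3 counts) cannot be told from 0.

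Counts were fitted in edgeR 4.0.16 (R 4.3.3) by the robust quasi-likelihood method with 1 mean per group over all 10 libraries and 5 residual degrees of freedom, after filterByExpr (minimum count 10, minimum total 15) and TMM scaling. The common biological coefficient of variation was 0.1. In 7 comparisons, p-values were adjusted by Benjamini-Hochberg over 14548 genes with a threshold of 0.05, and standard errors come from the F statistic. The fit was tested on simulated data. Gene positions, exon lengths and GC content are from GENCODE M21 (GRCm38), and upstream sequences are from RefSeq (GRCm38.p6). The alternatives were DESeq2 1.42.0 size factors and its Wald test, limma-voom (limma 3.58.1), no filter on low counts, gene length and GC trends removed, a replicate block, both together, the compared groups alone, and each library left out.

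The 10 genes and the other gene lists were chosen with earlier results of these data known, so no list was tested as a set. All 10 genes are named. For Fos and Egr1 the 3 nearest profiles are named, and of each other list up to 4 genes with the smallest adjusted p in the doxycycline and Flk1-positive comparisons, with exceptions stated. Of the listed ERK cascade genes, 12 were used, and the others are not reported here.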

Additional observations from a re-analysis of the deposited data

Results flagged for a closer look

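For Jun, the effect of doxycycline differed between the days, since the edgeR interaction of doxycycline and day was 0.87 on the log2 scale (adjusted p = 0.00551). The log2 fold change was 1.23 at day 2.5 and 0.37 at day 2, and the interaction lay between 0.73 and 1.02 in the 18 alternative fits, past the threshold in each. For Egr1, the interaction was -1.27 (adjusted p = 0.00155), with log2 fold changes of -2.53 at day 2.5 and -1.25 at day 2, and it lay between -1.38 and -1.17 in the 18 fits, past the threshold in each. Both interactions contain the pair of doxycycline day 2 libraries that stood apart from each other. Without replicate 1 of that pair they were 1.002 for Jun and -1.29 for Egr1, and without replicate 2 they were 0.74 and -1.26. Summed ERK feedback genes and endothelial and blood markers moved between the same groups, and their part was not tested.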

How the results depend on the processing

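Of 1134 values of members' log2 fold changes under the 18 alternatives, 974 kept their direction and their side of the threshold, 33 changed sign without being called in either fit, 59 lost the call, 68 gained one and none of the called ones reversed. Fos and Egr1 at day 2, Fos, Jun, Egr1 and Atf3 at day 2.5, and all 6 calls between Flk1-positive and untreated samples held in all 18. Of 3276 counts of the other lists, 309 moved by more than 1.5 times.

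Members called higher with doxycycline at day 2 were 3 with limma-voom and 1 with only the compared groups fitted, against 5, and between 1 and 7 with a library left out. At day 2.5 they were 7 with gene length and GC trends removed, with or without the block, and with only the compared groups, against 4, and between 3 and 7 with a library left out. In Flk1-positive against other doxycycline samples, 4 were lower without the low-count filter and with only the compared groups, against 2 (2 to 4 with a library left out), and 2 were higher, against 1, with block and trends. With time in untreated samples, 4 were higher with block and trends or only the compared groups, against 2 (1 to 3 with a library left out). The 1 lower was 0 with DESeq2 size factors or test, limma-voom, trends removed, the block, both, or only the compared groups (0 to 2). With time in doxycycline samples, 1 was higher and 1 lower in the fit of the compared groups, against 2 (1 to 3) and 3 (1 to 4). For the interaction, 3 were higher with trends removed, with or without the block, against 1 (1 to 3), and 2 were lower without the filter or with block and trends, against 1 (1 to 3).

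The labels give replicate numbers but no shared batch, and deviations of same-numbered libraries correlated at -0.03 to 0.1 over 10 pairs of groups, so the numbers were not taken as pairs. With the replicate block (4 residual degrees of freedom), Jund was called higher with doxycycline at day 2.5 (adjusted p = 0.0351) and lower in Flk1-positive samples (0.0306), Junb was called higher in Flk1-positive against untreated samples (0.0416), and the Atf3 fall with time was lost (0.0535). It changed no other member's call.

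Over all genes, the 453 higher and 227 lower with doxycycline at day 2 became 804 and 367 with trends removed, 920 and 422 with block and trends, and 117 and 38 with only the compared groups. Lower calls were 343 under DESeq2 and 437 without the filter. Leaving out an untreated day 2 library gave 188 and 58 or 196 and 59, and leaving out a doxycycline one 1035 and 733 or 1022 and 1275. With time in untreated samples, 1342 higher became 2021 with block and trends, and 1342 and 1494 became 2299 and 2276 with only the compared groups, and 358 to 2266 and 322 to 2536 with a library left out. The 763 lower in the interaction were 1428 with trends removed and 1585 with block and trends, and with a library left out the 1000 higher and 763 lower became 559 to 2115 and 278 to 1954. The 2001 lower with doxycycline at day 2.5 were 1032 without doxycycline day 2.5 replicate 2, and 1200 and 1333 without untreated day 2.5 replicates 1 and 2. The 2982 higher in Flk1-positive against other doxycycline samples were 1909 without doxycycline day 2.5 replicate 2. The causes were not tested. With 2 libraries a group, small differences were not resolved, and Fosb and Ier3 rest on few counts.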

Other observations

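Nab2, which encodes a corepressor of EGR proteins, was named after its value was seen. It averaged 3.73 ± 0.57 CPM in doxycycline-treated and 9.42 ± 1.21 CPM in untreated embryoid bodies of day 2.5 (SD, n = 2 each), a log2 fold change of -1.34 ± 0.24 (edgeR, adjusted p = 6.12e-04). Egr1 was lower in the same comparison, while Egr2 was at 3.99 ± 0.08 CPM with doxycycline and 1.77 ± 0.39 CPM without (log2 1.17 ± 0.29, adjusted p = 0.00584).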
